A study of Homo sapiens with 9 samples.

Results

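Gene expression was compared between HEK293 cells transiently transfected with surfactant protein C carrying the L188Q substitution (LQ, 3 arrays) and HEK293 cells transiently transfected with surfactant protein C lacking exon 4 (Ex4, 3 arrays). These 6 arrays, chosen by their titles, were 6 of the 9 in the series. The other 3 came from cells transfected with wild-type surfactant protein C (WT); they entered the same model to estimate the spread and are given here for reference. HEK293 is a line derived from human embryonic kidney, so the protein was made outside its own cell type, and the transfection efficiency of each construct was not analysed here. Total RNA was measured on Affymetrix arrays with 54613 probe sets besides the controls, and each deposited value is 1 linear MAS5 intensity, called signal below. In such bulk RNA, fewer expressing cells and less RNA per cell cannot be told apart. Nothing in the labels tells replicate cultures from replicate hybridisations, so p-values reflect only how these arrays spread, which may be technical.

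Surfactant protein C is a small hydrophobic peptide of lung surfactant that alveolar type II cells cut from a larger proprotein. The exon 4 deletion and L188Q both alter the proprotein's C-terminal BRICHOS domain, which guards its folding in the endoplasmic reticulum (ER), and both are known from patients with interstitial lung disease. Misfolded proteins in the ER activate the unfolded protein response (UPR). Its sensors IRE1, PERK and ATF6 raise transcription of ER chaperones and of the machinery that returns misfolded proteins to the cytosol for degradation by the proteasome. Misfolded proteins in the cytosol instead engage heat shock factor, which drives the cytosolic chaperones of the HSP70, HSP90, HSP40 and small heat shock families. The comparison of LQ with Ex4 asks whether these 2 forms of the protein leave different transcriptional marks.

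Most genes typical of the labelled line were bright enough to be tested, which alone does not identify the line. Of 12 genes typical of HEK293 cells, 11 had a probe set naming them alone, and all 11 were tested. They averaged 12.33 to 12.52 on the log2 scale on the mutant arrays. Among them VIM, an intermediate filament of mesenchymal cells, had 75724 to 83692 in Ex4 and 77276 to 90320.2 in LQ. PAX2 was far dimmer, with 385 to 1149.5 in Ex4 and 408 to 535.5 in LQ. Of 14 blood and endothelial markers 8 were too dim to test, among them PTPRC, VWF and KDR, and the same held for 8 of 14 fibroblast markers. Of 16 alveolar type II genes 3, SFTPD, SLC34A2 and HHIP, were too dim, 2 had no probe set naming them alone and 11 were tested. Those 11 averaged 9.097 to 9.797 on the log2 scale on the mutant arrays, beside 10.86 to 10.96 over all genes tested. Array medians were 303.9 to 371.8 in LQ and 316.1 to 434.3 in Ex4 (exact permutation p = 0.6, two-sided, over 20 splits). RNA integrity, read from 3' over 5' probe sets, did not set the mutants apart: the GAPDH ratio was 1.07 ± 0.016 in LQ and 1.12 ± 0.14 in Ex4 (SD, n = 3, exact permutation p = 0.6), and the ACTB ratio 1.18 ± 0.041 and 1.35 ± 0.18 (exact permutation p = 0.4).

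Ex4 replicate 1 lay apart from the other mutant arrays. The 18S rRNA control probe set at the 3' end had a signal of 172668, 1493 and 2348 on Ex4 replicates 1, 2 and 3, of 741 to 1437 on the LQ arrays and of 166099 to 270629.5 on the WT arrays. Ex4 replicate 1 was thus in the WT range and Ex4 replicates 2 and 3 were near the LQ arrays. Across tested probe sets Ex4 replicate 1 correlated at 0.906 with its own group, 0.927 with LQ and 0.911 with WT on average, a description over probe sets that share each array. In 180 of 14018 genes it was more than 1 log2 unit above each of the other 5 mutant arrays, against 1 to 11 genes for any other of these arrays, and 115 of the 180 values lay within the WT range. Among the 180 were 12 of the 29 tested replication-dependent histone genes, whose mRNAs end in a stem-loop in place of a poly(A) tail. H1-4, a linker histone, had signals of 35539, 328 and 459 on the Ex4 arrays, 1454, 986 and 1029 on the LQ arrays and 27635 to 75258 on the WT arrays. Histone genes are near-identical copies, so a signal may belong to several of them. In the other direction it was no outlier by count, with 130 genes more than 1 log2 unit below the other mutant arrays, against 62 to 220 for the others. Of these 130 values 24 lay within the WT range. One of the 24 is AAGAB, which assists the assembly of clathrin adaptors. It had 743, 5062 and 4809 on the Ex4 arrays, 5549 to 6148 on the LQ arrays and 335 to 1177 on the WT arrays. Results are given with all 3 Ex4 arrays unless stated otherwise. Leaving out a single array in turn changed the sign of 12 of 107 named genes and of 20 of 28 list medians, and moved 52 and 27 of them by more than 1.5 times, so small changes and list medians depend on single arrays. The part of the 18S signal in the results was not tested.

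**Figure D1:**
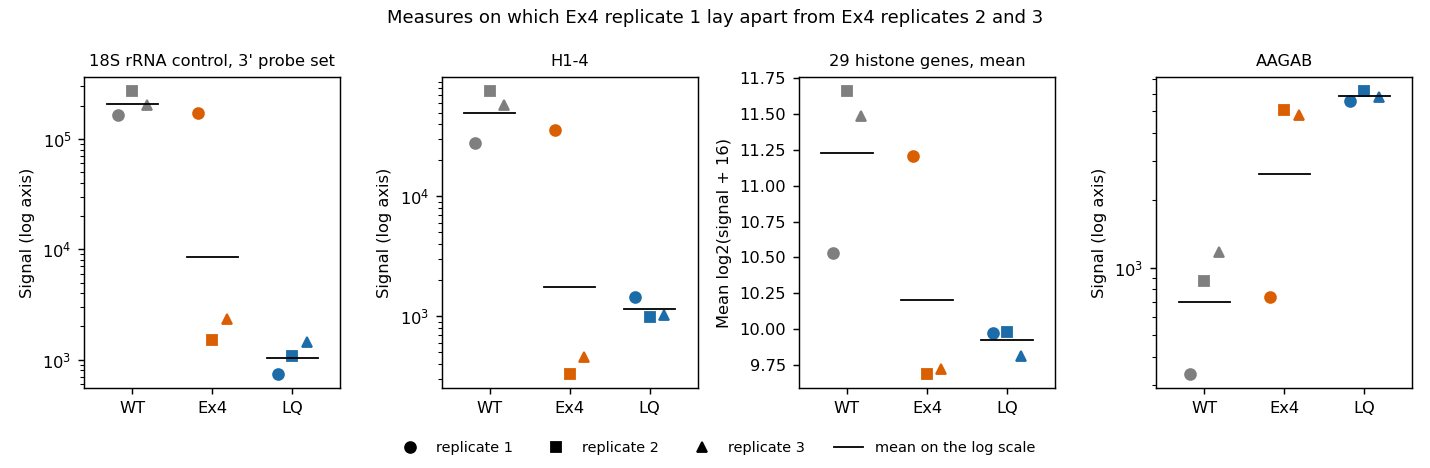
Signal of the 18S rRNA control, of H1-4 and of AAGAB on log axes, and the mean log2(signal + 16) of the 29 tested replication-dependent histones, for each of the 9 arrays, with a line at the group mean. On the 18S control, H1-4 and AAGAB the Ex4 replicate 1 point lies near the WT points while Ex4 replicates 2 and 3 lie near the LQ points.

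The transfected transcript itself differed between the mutants. SFTPC has 5 probe sets on the array, named A to E here in the order of their identifiers. On probe set A (205982_x_at) the signal was 24666, 23779 and 19159.6 on Ex4 replicates 1, 2 and 3 and 129022, 107088 and 116128 on LQ replicates 1, 2 and 3. The groups did not overlap, and LQ was 5.22-fold higher, with a log2 change of 2.39 (95% interval 2.02 to 2.75) and a limma adjusted p of 0.00020. On probe set C (214387_x_at) the Ex4 signals were 914, 39.1 and 28.7 and the LQ signals 126185, 108292 and 112695. All 3 LQ arrays were far above all Ex4 arrays, with a fitted log2 change of 9.77 (95% interval 7.98 to 11.57) and an adjusted p of 0.00082. The Ex4 signal was below the array median on replicates 2 and 3 and above it on replicate 1. The size of this difference is therefore poorly measured, and without Ex4 replicate 1 it was 11.18.

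The other 3 SFTPC probe sets gave no call and the groups overlapped on each. On B (211735_x_at) the signal was 134379, 97629.7 and 169241 in Ex4 and 132058, 108963 and 124170.0 in LQ, with a log2 change of -0.10 (95% interval -0.56 to 0.35). On E (38691_s_at) it was 149954, 97702 and 172184 and 129027, 118126 and 120434, with a log2 change of -0.15 (95% interval -0.60 to 0.30). These 2 intervals lie within 2-fold, so the difference in signal between the mutants was within 2-fold on B and E, while A and C set them apart. LQ replicate 1 had 129022, 132058, 126185 and 129027 on A, B, C and E. Whether signals this bright still follow the transcript level was not tested, so B and E do not bound that level. Probe set D (215454_x_at) was far dimmer, with 1187 to 4509.7 in Ex4 and 734 to 2860.0 in LQ and a log2 change of -1.01 (95% interval -2.20 to 0.17). Which exons the 5 probe sets cover was not analysed here.

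**Figure D2:**
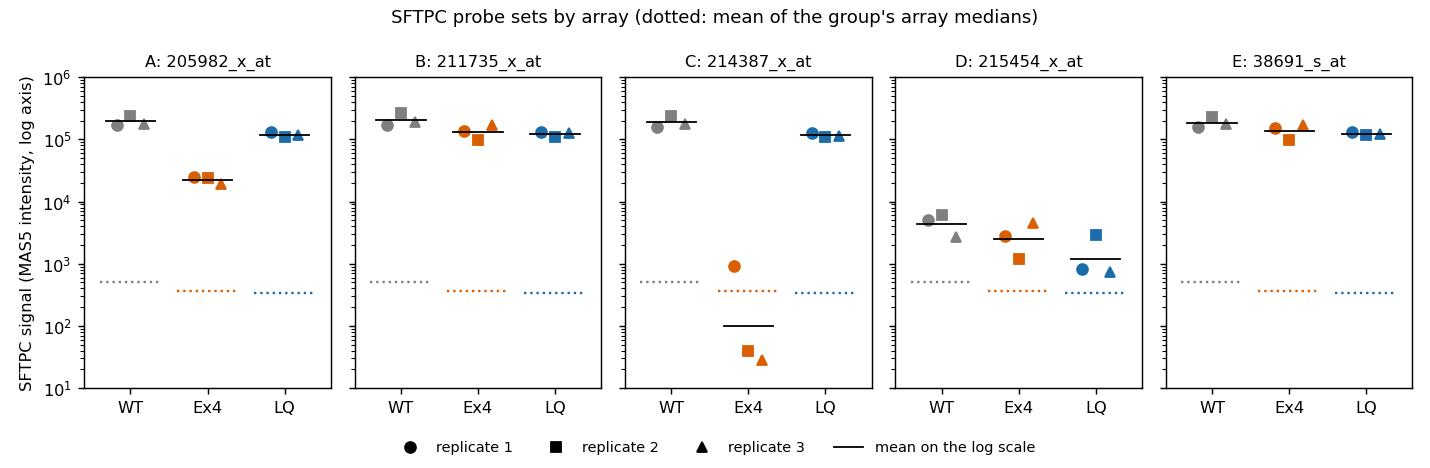
Signal of the 5 SFTPC probe sets on a log axis for each WT, Ex4 and LQ array, with a solid line at the group mean on the log scale and a dotted line at the mean of the group's array medians. On A and C the Ex4 points lie below all LQ points, and on B, D and E the points of both mutants overlap.

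Beyond SFTPC the mutants were hard to tell apart. Of 32768 probe sets tested, 2 passed a limma adjusted p of 0.05 (0.0061%), both higher in LQ and both SFTPC probe sets. No other gene passed. Among 14018 genes, each represented by its brightest probe set, 0 passed (0%), and 588 (4.19%) had an unadjusted p under 0.05, of which 307 were higher and 281 lower in LQ. All 3 LQ arrays were above all 3 Ex4 arrays for 828 genes (5.91%) and below them for 907 (6.47%). The median log2 change was -0.0096, the 5th and 95th percentiles were -0.57 and 0.54, and 310 genes (2.211%) exceeded 2-fold either way. A missing call does not show equal levels, so the intervals matter here. For 9540 genes (68.06%) the 95% interval of the difference lay within 2-fold, and for the others it reached beyond 2-fold. The same model called 2231 probe sets for LQ against WT and 4 for Ex4 against WT. Those 2 comparisons share the WT arrays, and a call in one of them without a call in the other is no difference between the mutants.

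**Figure D3:**
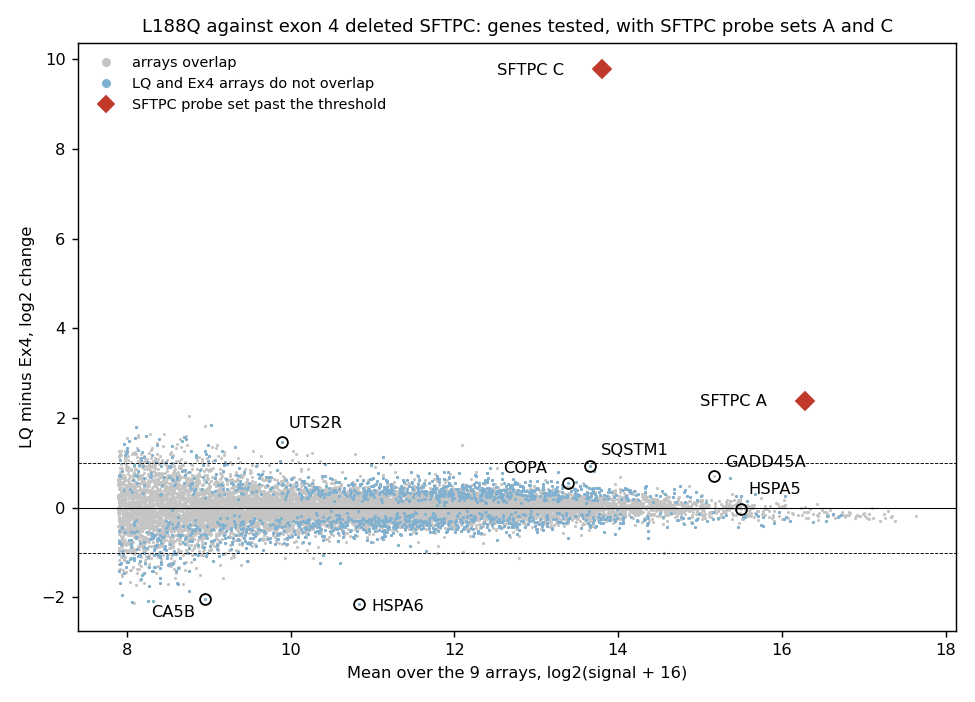
Log2 change of LQ against Ex4 (vertical axis) against the mean log2(signal + 16) over the 9 arrays (horizontal axis) for the genes tested, with dashed lines at 2-fold. SFTPC probe sets A and C lie at 2.39 and 9.77, and HSPA6 at -2.15 is the lowest of the circled genes.

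Genes that respond to misfolded protein in the ER had differences of less than 2-fold between the mutants on their brightest probe sets. Of 23 such genes chosen for their known role, 0 passed, 11 had a positive and 12 a negative log2 change, and the changes ran from -0.50 to 0.44 with a median of -0.02. All 23 of the 95% intervals lay within 2-fold, against 68.06% over all genes. Of the 23, 2 had all LQ arrays higher and 1 had all LQ arrays lower, beside 5.91% and 6.47% over all genes. Without Ex4 replicate 1 the median was -0.12 and 22 of the intervals lay within 2-fold. These genes are bright, with a median level of 13.5 on the log2 scale against 10.96 over all genes. Their intervals had a median width of 0.895, close to the 0.869 of the brighter genes on the array and below the 1.65 of the dimmer genes.

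All LQ arrays lay above all WT arrays for 13 of the 23 genes, beside 15.7% over all genes, and all Ex4 arrays did for 9, beside 9.07% over all genes. The 9 are among the 13, and both counts use the same WT arrays. Ex4 replicate 1 was the lowest of the Ex4 arrays for 17 of the 23. Another 26 probe sets of 13 of these genes were tested, with log2 changes from -0.51 to 0.93 and a median of 0.0079, and 0 of them passed. Each gene is represented here by its brightest probe set, and for these dimmer ones the interval lay within 2-fold for 19 of the 26 and reached beyond it for 7. It did not include 0 for 3 of them, 0.93 (0.35 to 1.51) for 208499_s_at of DNAJC3, 0.62 (0.09 to 1.16) for 202062_s_at of SEL1L and 0.60 (0.13 to 1.06) for 1554420_at of ATF3. In what follows, a gene's log2 change of LQ against Ex4 is given with its 95% interval in parentheses.

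Among the ER chaperones HSPA5 comes first, the HSP70 of the ER, also known as BiP, whose release starts the response. Its signal was 47913, 58233 and 62874 on Ex4 replicates 1, 2 and 3, 57613, 54507 and 53482 on LQ replicates 1, 2 and 3 and 40365, 32956 and 25687 on the WT arrays. The LQ signals lie inside the range of the Ex4 signals, all 6 are above every WT array, and the log2 change was -0.02 (95% interval -0.40 to 0.36). HSP90B1, the HSP90 of the ER, had 21592 to 23094 in Ex4 and 21888 to 26728 in LQ, with a log2 change of 0.14 (95% interval -0.33 to 0.61). The HSP70-like HYOU1 had -0.12 (-0.49 to 0.25). Among the J-domain cochaperones DNAJB9 had 0.07 (-0.40 to 0.55), DNAJC3 -0.03 (-0.47 to 0.40) and DNAJC10 -0.08 (-0.64 to 0.48). SDF2L1, a partner of HSPA5 in the ER, had the largest positive change of the 23, 0.44 (-0.12 to 0.99), from 2342, 4799 and 3893 in Ex4 and 3931, 4610.0 and 6007 in LQ. Its low Ex4 value came from replicate 1, and without that array the change was 0.14. The secreted stress factors MANF and CRELD2 had -0.03 (-0.34 to 0.29) and 0.18 (-0.26 to 0.63), and the disulfide isomerases PDIA4 and PDIA6 had 0.16 (-0.20 to 0.51) and -0.03 (-0.49 to 0.43), the latter -0.29 without Ex4 replicate 1. CANX, a lectin chaperone of the ER membrane, had -0.07 (-0.35 to 0.21). Its soluble relative CALR was the exception on its brightest probe set, with a log2 change of -0.50 (95% interval -0.99 to -0.01), an interval that does not include 0. The CALR signals were 10674, 12512 and 15938 in Ex4 and 10025, 10817 and 6919.8 in LQ, they overlap by 1 LQ array, and the gene did not pass (limma adjusted p = 0.998). The CALR probe sets 212953_x_at and 200935_at had -0.40 (-0.91 to 0.12) and -0.08 (-0.55 to 0.40), and both of these intervals include 0.

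The promoter of HSPA5 is shown because it carries the element through which ATF6 and its partner NF-Y drive these genes. Capitals mark the ER stress response element, CCAAT and CCACG with 9 bases between them, which was searched on both strands in the RefSeq promoter table (GRCh38.p14, 250 bases before to 50 after each gene start). Its first base lies at -66 in this 300 base window at chr9:125241294-125241593, minus strand.

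HSPA5: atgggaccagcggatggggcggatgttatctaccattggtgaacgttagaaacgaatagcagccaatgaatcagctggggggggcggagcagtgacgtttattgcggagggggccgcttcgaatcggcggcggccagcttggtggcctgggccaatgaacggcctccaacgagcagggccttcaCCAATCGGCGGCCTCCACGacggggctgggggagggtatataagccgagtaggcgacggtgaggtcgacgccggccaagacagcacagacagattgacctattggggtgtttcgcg

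The element was found in 27 of 35116 promoters (0.0769%) and in 7 of the 39 ER chaperone genes with a promoter in the table (17.9%), namely CALR, CANX, CRELD2, ERO1B, HSP90B1, HSPA5 and PDIA6. Their log2 changes of LQ against Ex4 were -0.50, -0.07, 0.18, -0.40, 0.14, -0.02 and -0.03 in that order, none of which passed. It was found in 0 of the 30 genes of ER-associated degradation with a promoter, which says only that these letters are not in those windows.

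ER-associated degradation extracts misfolded proteins from the ER. HERPUD1, a membrane scaffold of its ubiquitin ligase complex, had 6311, 9874 and 9301 in Ex4 and 9911, 10027 and 11094 in LQ. All 3 LQ arrays were higher, though by little over Ex4 replicates 2 and 3, and the log2 change was 0.31 (95% interval -0.11 to 0.72), or 0.11 without Ex4 replicate 1. SEL1L, the adaptor of the ligase HRD1, had -0.05 (-0.40 to 0.29). For EDEM1, a mannosidase-like protein that marks glycoproteins for disposal, all 3 LQ arrays (1893 to 2277) lay below all 3 Ex4 arrays (2459 to 2949), with -0.35 (-0.81 to 0.12). XBP1, the transcription factor spliced by IRE1, had -0.04 (-0.51 to 0.42), and these probe sets do not measure its splicing. On the PERK branch ATF4 had 0.18 (-0.20 to 0.56) and its targets DDIT3, TRIB3, ASNS and CHAC1 had 0.39 (-0.02 to 0.79), 0.13 (-0.40 to 0.66), -0.04 (-0.53 to 0.44) and 0.01 (-0.71 to 0.74). Without Ex4 replicate 1 ATF4 had 0.33 (-0.05 to 0.71) and DDIT3 0.56 (0.17 to 0.95), with all LQ arrays above the remaining Ex4 arrays for both, and neither passed. ATF3, a stress-induced factor, had 58539, 50185 and 59845 in Ex4 and 69932, 68504 and 68679 in LQ. The ATF3 arrays did not overlap, the log2 change was 0.30 (95% interval -0.04 to 0.64), and the gene did not pass. The ATF3 probe sets 1554980_a_at and 1554420_at had 0.69 (-0.02 to 1.40) and 0.60 (0.13 to 1.06), and neither passed.

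**Figure D4:**
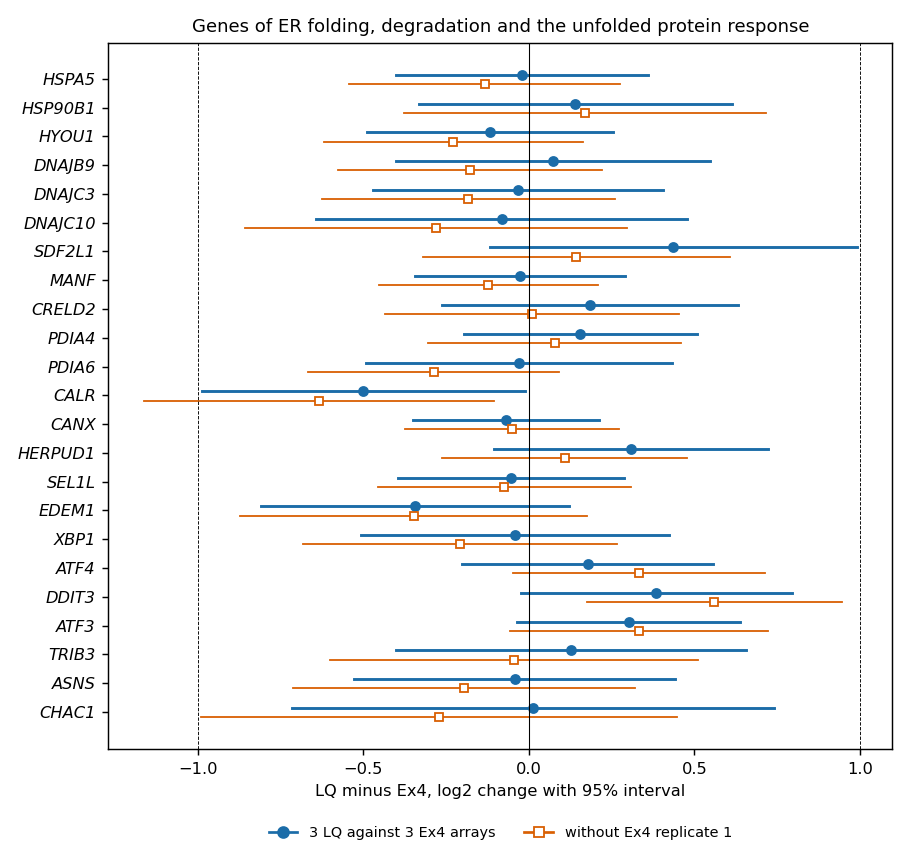
Log2 change of LQ against Ex4 with its 95% interval for 23 genes of ER folding, ER-associated degradation and the UPR, from all 6 mutant arrays (filled circles) and without Ex4 replicate 1 (open squares). Every filled circle lies between -0.50 and 0.44, and every interval drawn with a filled circle stays between the dashed lines at 2-fold.

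The wider lists of the secretory pathway held no call either. Of 41 tested ER chaperones and folding enzymes, 17 had a positive change, 0 passed and the median was -0.03, beside -0.0096 over all genes, or -0.13 without Ex4 replicate 1. CNPY4 had the smallest p among them, with 1644, 1189 and 1292 in Ex4 and 881, 782 and 819 in LQ and a log2 change of -0.71 (-1.23 to -0.19). Of 39 tested genes of ER-associated degradation 19 were positive, with a median of -0.00029, or -0.07 without that array. JKAMP, a membrane protein linked to the proteasome, had -0.54 (-0.90 to -0.17), and NPLOC4, a cofactor of the extracting ATPase VCP, had 0.42 (0.03 to 0.82). Of 29 UPR sensors and factors 21 were positive, with a median of 0.12 that was 0.06 without Ex4 replicate 1. BAK1, a pore-forming protein of apoptosis also counted in that list, had 1839.6 to 1982 in Ex4 and 3019 to 3541 in LQ, and CEBPG, a partner of ATF4, had 0.33 (-0.02 to 0.67). The ATF4 targets and genes of amino acid supply had 22 of 39 positive and a median of 0.05, which turned to -0.06 without Ex4 replicate 1. SESN2 had 0.48 (0.07 to 0.90). The glycine transporter SLC6A9 had 1.15 (0.05 to 2.26), but it was dim, with 457, 392.1 and 83.5 in Ex4 and 628, 622 and 499 in LQ, and without Ex4 replicate 3 the change was 0.44. In the list of translocation, glycosylation and ER-to-Golgi transport 29 of 65 were positive, with SEC24A, a cargo adaptor of COPII vesicles, at -0.42 (-0.76 to -0.08). ER calcium handling had 14 of 22 positive, with SARAF at 0.29 (-0.06 to 0.64). No member of these 6 lists passed.

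After SFTPC the gene with the smallest p was HSPA6, an inducible cytosolic HSP70. Its signal on probe set 213418_at was 2315, 4917 and 5238 on Ex4 replicates 1, 2 and 3, 1250.2, 744 and 703 on LQ replicates 1, 2 and 3 and 2087, 2185 and 1145 on the WT arrays. Every LQ array was below every Ex4 array, and Ex4 replicate 1 was the lowest of the Ex4 arrays and near the WT arrays. The log2 change was -2.15 (95% interval -2.93 to -1.37), that is 0.225 times the Ex4 level, and it did not pass over all genes (limma adjusted p = 0.703). The second probe set, 117_at, had 1617, 2338 and 2340.2 in Ex4 and 861, 327 and 397 in LQ, with a log2 change of -2.06 (95% interval -2.87 to -1.26), so both probe sets gave the same direction without overlap. Without Ex4 replicate 1 the change was -2.53 (adjusted p = 0.11). With only the 5 arrays of low 18S signal, which are the LQ arrays and Ex4 replicates 2 and 3, HSPA6 passed over all genes (limma adjusted p = 0.014) and was the only gene to do so. That selection was chosen after the 18S signals were seen, and it leaves out the WT arrays. Against WT the log2 change of HSPA6 was 1.16 for Ex4 and -0.99 for LQ (limma adjusted p = 0.086 and 0.094), neither of which passed. Between the mutants HSPA6 was lower in LQ under all 21 alternative settings tried, from -2.53 to -1.94. HSPA6 has a near-identical pseudogene, HSPA7, which the probe sets may also detect.

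The promoter of HSPA6 is shown because heat shock factor drives this gene from an element next to its start. Capitals mark the heat shock element, to which heat shock factor binds as a trimer. It was searched on both strands as the units GAA, TTC and GAA with 2 bases between neighbours. It begins at -74 in the 300 base window at chr1:161524290-161524589, plus strand, GRCh38.p14.

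HSPA6: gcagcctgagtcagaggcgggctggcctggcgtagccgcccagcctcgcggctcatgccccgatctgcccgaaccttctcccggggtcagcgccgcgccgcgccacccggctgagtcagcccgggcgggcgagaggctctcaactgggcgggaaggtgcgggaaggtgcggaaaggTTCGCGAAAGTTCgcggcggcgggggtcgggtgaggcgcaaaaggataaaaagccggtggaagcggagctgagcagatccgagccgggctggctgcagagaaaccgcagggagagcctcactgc

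The same letters occur in 172 of 35116 promoters (0.49%) and in 9 of the 36 listed heat shock genes with a promoter in the table (25%). The search does not overlap with the ER stress response element, whose letters differ.

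The list of cytosolic heat shock genes also holds the mitochondrial HSPD1 and HSPE1, which are in its counts. Of its 42 genes 34 were tested, 1 was too dim, and 7, among them HSPA1A and HSPA1B, had no probe set naming them alone. Probe sets shared by several genes were not used for this list, so HSPA1A and HSPA1B were not assessed in it. Of the 34, 13 had a positive change and the median was -0.09. The LQ arrays were all lower than the Ex4 arrays for 8 (23.5%) and all higher for 3 (8.82%), beside 6.47% and 5.91% over all genes, and 0 passed. HSPA6 was the first of the 8. DNAJB1, the main HSP40 partner of cytosolic HSP70, had 6927, 8840.4 and 9326 in Ex4 and 5429, 5731 and 5394 in LQ, with a log2 change of -0.59 (95% interval -0.99 to -0.19). DNAJB4, of the same family, had 1868 to 2776 and 1519.8 to 1657. The mitochondrial chaperonin HSPD1 and its lid HSPE1, which share a promoter region, had -0.20 (-0.49 to 0.09) and -0.45 (-0.90 to -0.0032). HSP90AA1, the inducible cytosolic HSP90, had -0.29 (-0.66 to 0.07), HSPH1, an exchange factor of HSP70, had -0.24 (-0.56 to 0.08), and the small heat shock protein HSPB1 had -0.18 (-0.60 to 0.24). The 3 with higher LQ arrays were HSPB8, with 6449 to 7677 in Ex4 and 9821 to 11144 in LQ and a log2 change of 0.58 (0.19 to 0.97), BAG1, an HSP70 cofactor, with 0.39 (0.0037 to 0.78), and DNAJB6, with 0.18 (-0.14 to 0.50). HSPB8 acts with BAG3 and SQSTM1 in the autophagy of misfolded proteins, and BAG3 had -0.15 (-0.64 to 0.34). The list median was -0.18 without Ex4 replicate 1 and 0.0045 after median centring of the arrays, so its sign depends on the scaling.

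**Figure D5:**
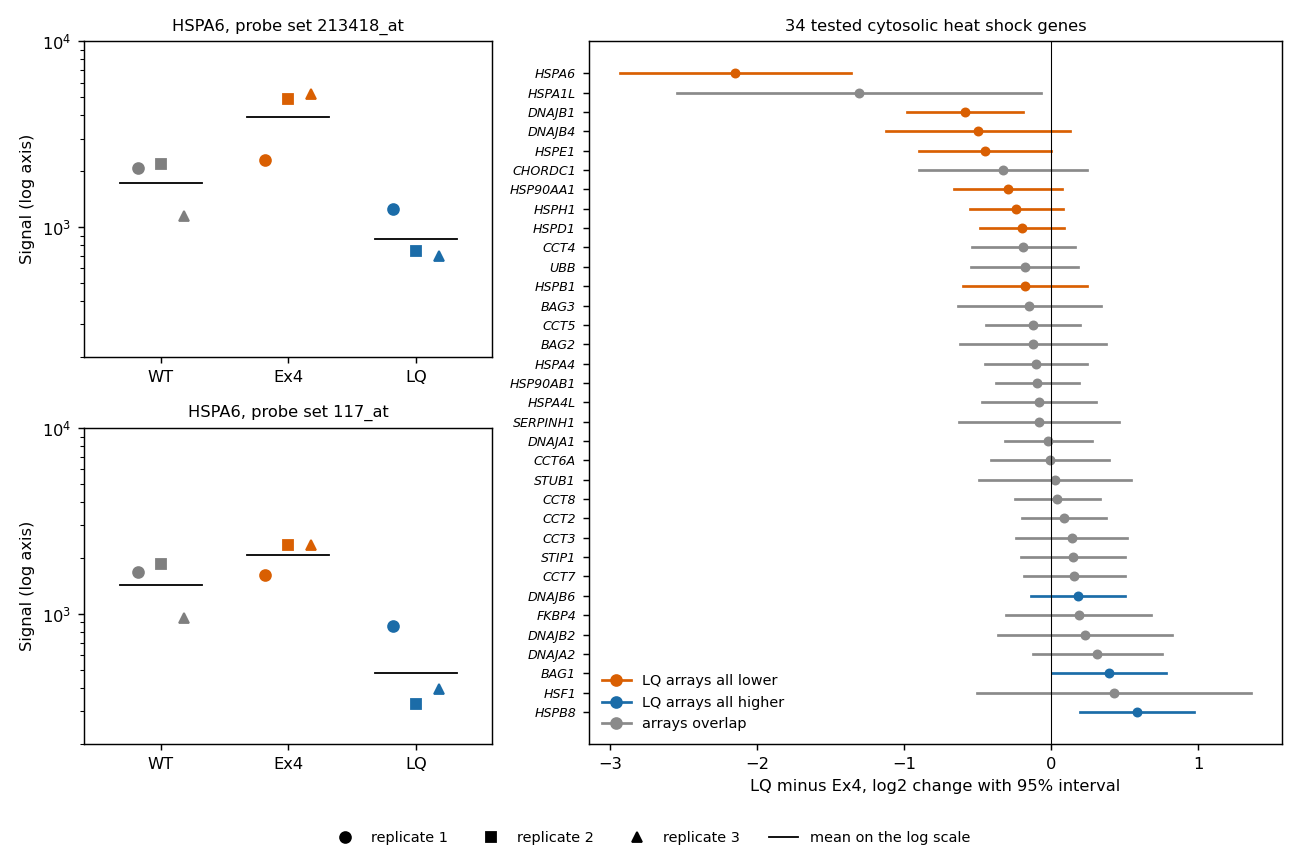
Left, HSPA6 signal on its 2 probe sets by array, on log axes. Right, the log2 change of LQ against Ex4 with its 95% interval for the 34 tested genes of the heat shock list, ordered by the change. HSPA6 lies lowest at -2.15, the 8 genes whose LQ arrays were all lower are drawn in orange and the 3 whose LQ arrays were all higher in blue.

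Since only SFTPC passed, the named genes are the 12 each way with the smallest p among those whose arrays did not overlap and whose brighter group lay above the array median. None of the 24 passed. The limma adjusted p was 0.703 for HSPA6 and SQSTM1 and 0.998 for the 22 others, and their absence of overlap is part of how they were chosen.

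SQSTM1, also known as p62, is a receptor that binds ubiquitinated cargo for autophagy. Its signal on 201471_s_at was 9984, 11874 and 8476 in Ex4, 20397, 18458 and 18371 in LQ and 9762, 12213 and 12093 in WT. The LQ arrays stood above both other groups, which overlapped, and LQ was 1.90-fold above Ex4, a log2 change of 0.93 (95% interval 0.57 to 1.28). The difference was 0.92 without Ex4 replicate 1. Its other 4 probe sets were dimmer, with log2 changes of 0.30, -0.14, 0.04 and -0.76, and did not show it. In the autophagy and lysosome list, which holds SQSTM1, 25 of 50 tested genes were positive and the median was 0.01. ATP6V1B2, a subunit of the proton pump of lysosomes, came next with 0.63 (0.15 to 1.11), or 0.37 without Ex4 replicate 1.

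The other 11 with higher LQ arrays have mixed roles. COPA, a coat subunit of the COPI vesicles that return from Golgi to ER, had 10055, 8805 and 9985 in Ex4, 14009, 13832 and 14094 in LQ and 8684, 9758 and 9260.2 in WT. The 3 LQ values lie close together and above all others, with a log2 change of 0.54 (95% interval 0.25 to 0.84), and the other COPA probe set tested, 214336_s_at, had 0.83. TM9SF4, a membrane protein of the Golgi and endosomes, had 0.63 (0.26 to 1.0), and P3H2, a prolyl hydroxylase of collagens in the ER, had 0.80 (0.37 to 1.22). MARCHF5, a ubiquitin ligase of the mitochondrial outer membrane, had 5016 to 5763 in Ex4, 7502 to 8342 in LQ and 3468 to 3952 in WT. Here both mutants lay above WT and LQ above Ex4, with a log2 change between the mutants of 0.58 (95% interval 0.25 to 0.90). GTPBP2, a GTP-binding protein, had 0.68 (0.30 to 1.07). The transcription factor ETS1 had 0.80 (0.33 to 1.27), the cell cycle regulator SERTAD1 0.74 (0.30 to 1.17) and CALCB, which encodes a calcitonin gene-related peptide, 0.71 (0.29 to 1.14). C11orf96 had 0.89 (0.37 to 1.40) and C1orf198 0.64 (0.28 to 1.0). UTS2R, the urotensin receptor, had the largest of these changes, 1.46 (95% interval 0.68 to 2.23), but it was dim, with 572, 502 and 345 in Ex4 and 797, 1697 and 1622 in LQ, and the LQ values lie within or near the WT range of 927 to 1733.

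Of the 11 besides HSPA6 with lower LQ arrays, the dim ones had the largest changes. CA5B, a mitochondrial carbonic anhydrase, had 1190.4, 454 and 493 in Ex4, 152, 80.4 and 238 in LQ and 984, 1804 and 841 in WT, a log2 change of -2.05 (95% interval -3.11 to -0.98), and -1.61 without Ex4 replicate 1. Its LQ arrays lay below their medians, so the size is uncertain. PRMT8, an arginine methyltransferase, had -2.09 (-3.38 to -0.80), with all LQ arrays below their medians as well. The metallothionein MT1H had -1.23 (-1.99 to -0.46), and its probes may also detect close relatives. Brighter genes had smaller changes. RANBP9, a scaffold of a ubiquitin ligase complex, had 16426, 17038 and 20672 in Ex4 and 12342, 12785 and 10901 in LQ, with -0.58 (-0.90 to -0.27), and NCKAP1, a subunit of the WAVE complex that drives actin branching, had -0.68 (-1.08 to -0.28). EDIL3, a secreted integrin ligand, had -0.52 (-0.83 to -0.20), PIGK, a subunit of the enzyme that attaches GPI anchors in the ER, -0.56 (-0.91 to -0.21), and the peptidase NLN -0.85 (-1.36 to -0.34). VCF2 had -1.05 (-1.60 to -0.49), EEIG2 -0.78 (-1.21 to -0.34) and the antisense RNA HLA-F-AS1 -0.83 (-1.26 to -0.40).

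Leaving out Ex4 replicate 1 changed which genes stood out. Without it 3 probe sets passed, SFTPC A and C and 1 annotated to more than 1 gene (200799_at, log2 change -1.52, limma adjusted p = 0.036), and again 0 genes passed. On 200799_at the signal was 29819, 57254 and 53369 in Ex4, 18527, 21802 and 17805 in LQ and 39176.5 to 55829 in WT. Its LQ and Ex4 arrays did not overlap. Probe sets annotated to more than 1 gene are outside the gene counts and the lists. The genes of 200799_at are not named here. They may include listed genes without a probe set of their own, such as HSPA1A and HSPA1B. Among the 8 each way with the smallest p in that fit, the adjusted p ran from 0.25 to 0.36 for the higher genes and from 0.11 to 0.57 for the lower. Of the 8 higher genes, 7 overlapped once Ex4 replicate 1 was counted. GADD45A, a DNA damage and stress gene, had 50829.7, 30481 and 25990.1 in Ex4, 61256, 50668 and 57531 in LQ and 23204 to 28507 in WT. Its Ex4 replicate 1 lies with the LQ arrays and the other Ex4 arrays lie near WT, and the log2 change was 0.72 with all arrays and 1.0 without that one. MAFF, a small MAF transcription factor, had 14621, 3556 and 2711 in Ex4 and 12126, 11346 and 6411 in LQ, with changes of 0.88 and 1.62. AKT1S1, a subunit of the kinase complex mTORC1, had 4839.9, 1825 and 2079 and 8105, 8961 and 4610.0, with 1.39 and 1.83. DNAH17, a dynein heavy chain, had 0.73 and 1.08, and C11orf96 had 0.89 and 1.16. In all 8 genes Ex4 replicate 1 had the highest Ex4 signal. These genes were picked in the fit without that array, which favours such a pattern, so the pattern says nothing further about that array. The dim genes SLIT3, PRLH and NKX6-3 had 3.16, 2.47 and 2.13 without it, where Ex4 replicates 2 and 3 lay below their medians, so these sizes are not measured.

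On the lower side of that fit HSPA6 came first, followed by ELK2AP, SELENOP, PCDH7, KIF1B, TUBA1A, ARHGEF6 and RANBP9. SELENOP, a secreted selenium carrier, had 2859.9, 5194 and 7716 in Ex4 and 2414, 2338 and 2690.4 in LQ, with log2 changes of -0.97 with and -1.35 without Ex4 replicate 1. TUBA1A, an alpha tubulin of a family of close copies, had 7383, 18907 and 20707 and 7459, 8632 and 12805, with -0.60 and -1.08. PCDH7, a protocadherin, had -0.57 and -0.83, the kinesin KIF1B -0.49 and -0.82, ARHGEF6 -0.49 and -0.79 and the pseudogene ELK2AP -1.86 and -2.43. In each of these 6 Ex4 replicate 1 had the lowest Ex4 signal, which the choice of genes without that array favours as well.

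On the histone genes Ex4 replicate 1 lay apart from Ex4 replicates 2 and 3. For the 29 tested replication-dependent histones the mean log2 signal was 11.21, 9.686 and 9.718 on Ex4 replicates 1, 2 and 3 and 9.973, 9.98 and 9.813 on the LQ arrays, against 10.53, 11.66 and 11.49 on WT. The list median of LQ against Ex4 was -0.28 with all arrays and 0.06 without Ex4 replicate 1, so its sign rests on that array, and 0 members passed. H4C5 and H2BC5 had the smallest p, with 0.60 (-0.13 to 1.32) and -0.46 (-1.04 to 0.12). Replacement variants, which are made outside S phase with poly(A) tails, had 5 of 9 positive, with MACROH2A2 at 0.64 (0.10 to 1.19) and H3-3A at -0.59 (-1.10 to -0.07). H3-3A had only 1 probe set naming it alone. That probe set was dim for this list, with 814 to 1682 on the mutant arrays, and may not stand for the whole gene. Genes of histone mRNA processing had 11 of 18 positive, with UPF1 at 0.33 (-0.05 to 0.72) and NPAT at -0.33 (-0.97 to 0.30).

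Among lists of growth and death, 7 of 37 tested apoptosis genes and p53 targets (18.9%) had an unadjusted p under 0.05, all of them higher in LQ, beside 4.19% over all genes, and 0 passed. The list median was 0.09, and BAK1 at 0.78 (0.23 to 1.33) and GADD45A at 0.72 (0.24 to 1.19) had the smallest p. In DNA replication 34 of 51 were positive and 6 (11.8%) had an unadjusted p under 0.05, all higher. Without Ex4 replicate 1, 4 of the 51 had such a p, beside 1087 of 14041 over all genes. With all arrays the LQ arrays were all higher for 7 (13.7%) and all lower for 2 (3.92%), beside 5.91% and 6.47% over all genes. Without Ex4 replicate 1 these were 12 and 11 of the 51, beside 14.2% and 17.1% over all genes. CDC6, which loads the replicative helicase, had 5648 to 7679 in Ex4 and 9105 to 10358 in LQ and a log2 change of 0.52 (0.15 to 0.88), and the GINS subunit GINS4 had 1.27 (0.44 to 2.09). Of the mitosis genes 21 of 48 were positive, and the LQ arrays were all higher for 8 (16.7%) and all lower for 3 (6.25%), beside 5.91% and 6.47% over all genes. Without Ex4 replicate 1 these counts were 9 and 9, beside 14.2% and 17.1% over all genes, so the excess of higher genes depends on that array. The phosphatase CDC25A had 0.78 (0.22 to 1.33) and the kinase AURKA 0.38 (0.06 to 0.70). Immediate early genes had 19 of 27 positive and a median of 0.22, or 0.07 without Ex4 replicate 3, with IER3 at 0.48 (0.05 to 0.91) and MCL1, a survival factor, at 0.39 (0.03 to 0.75). Inflammatory genes had 16 of 24 positive, led by TNFAIP3, an inhibitor of NF-kB, at 0.75 (0.15 to 1.34). For TNFAIP3 the Ex4 signals were 5613, 3679 and 2439 and the LQ signals 6836, 5504 and 6378. Interferon and RNA sensing genes had 27 of 48 positive and 0 with an unadjusted p under 0.05, with HLA-E at 0.32 (-0.06 to 0.70) and HLA-F at 0.30 (-0.14 to 0.74). Only 18 of those 48 had an interval within 2-fold, so the arrays say less about this list than about the ER genes.

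Ribosomal protein genes had mostly negative changes of small size. Of 52 tested, 5 had a positive change, the median was -0.17, the LQ arrays were all lower for 7 (13.5%, beside 6.47% over all genes) and 0 passed. RPL22 had 69985 to 79633 in Ex4 and 59513 to 67189 in LQ and a log2 change of -0.26 (-0.55 to 0.03), and RPL6 had -0.27 (-0.59 to 0.05). The median was -0.07 after median centring of the arrays and 0.0006 after quantile normalization, so the direction depends on the scaling. Splicing factors had 34 of 53 positive, with SF3A1 at 0.49 (0.17 to 0.82) and SF1 at 0.79 (0.22 to 1.36), or 0.42 without Ex4 replicate 1. Respiratory chain genes had 24 of 52 positive, with COX7B at -0.30 (-0.59 to -0.02). NDUFA3 had 9594, 9442 and 23158 in Ex4 and 7303, 8854 and 7845 in LQ, with -0.68 (-1.31 to -0.06), or -0.25 without the high Ex4 replicate 3. The proteasome had 18 of 35 positive and pointed both ways, with the ATPase PSMC3 at 0.51 (0.06 to 0.97) and the core subunit PSMA2 at -0.28 (-0.57 to 0.0025). In cholesterol and fatty acid synthesis 14 of 26 were positive, and the sterol enzymes SC5D and IDI1 had -0.34 (-0.63 to -0.05) and -0.38 (-0.77 to 0.01). The oxidative stress list had 13 of 32 positive, with the mitochondrial dismutase SOD2 at -0.76 (-1.36 to -0.17). SOD2 had only 1 probe set naming it alone, with 772 to 1546 on the mutant arrays. Glycolysis and hypoxia had 13 of 34 positive, with the glucose transporter SLC2A3 at 0.48 (-0.12 to 1.08) and PDK3 at -0.36 (-0.84 to 0.13). No member of any list in this paragraph passed.

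Marker lists of cell types did not separate the mutants either. HEK293 genes had 7 of 11 positive and no gene without overlap, with LHX1 at -0.40 (-1.14 to 0.34) and KRT18 at 0.15 (-0.23 to 0.52). Alveolar type II genes had 8 of 11 positive, led by MUC1 with 366, 629 and 31.1 in Ex4 and 987, 924 and 526 in LQ and a log2 change of 1.82, or 0.69 without Ex4 replicate 3. Fibroblast genes had 3 of 6 positive, with COL1A1 at -0.44 (-0.87 to -0.00014) and COL5A1 at -0.32 (-0.85 to 0.21), and blood and endothelial genes had 1 of 4, with CD3D at -0.38 (-1.48 to 0.72) and HBB at -0.22 (-1.25 to 0.82). None of these passed, and whether the dim ones were detected at all was not analysed here.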

How the data were processed

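Total RNA from HEK293 cells was measured on 9 Affymetrix arrays, 3 per group. The authors deposited 1 linear intensity per probe set and array, computed by MAS5 per the submitters' processing notes, which name no version. Detection calls were not used here, and precision is limited by the number of arrays. The deposited scaling was kept. Intensities were used as log2(value + 16), so fold changes are on that scale and understate differences of dim probes. A filter at percentile 40 of the mean left 32768 probe sets.

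All 9 arrays entered a single limma fit (limma 3.58.1 under R 4.3.3, variance trend on, replicate number not used). P-values were two-sided and adjusted by Benjamini-Hochberg over all probe sets for SFTPC and otherwise over 14018 genes, each taken from its brightest probe set naming it alone, with a threshold of 0.05. Symbols come from the platform annotation, updated through RefSeq. Intervals are 95% and unadjusted. Array values were compared by exact permutation tests, whose smallest p with 3 against 3 is 0.1. The model was tested on simulated data. Named genes were all SFTPC probe sets, 23 genes of ER folding and the UPR, the 12 each way described in the text, 8 each way without Ex4 replicate 1, and the 2 smallest p per list. Since too few genes passed, places were filled by smallest p. The 28 lists hold 1076 genes, of which 911 were tested, 49 were too dim and 116 lacked a probe set of their own. The groups, genes and lists were chosen with earlier results of these data known. Alternatives were other pseudocounts, scalings, filters and variance models, a replicate block, each array left out and, chosen after seeing the data, 2 that use the 18S control signal.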

Additional observations from a re-analysis of the deposited data

How the results depend on the processing

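The count of 2 probe sets past the threshold held under other pseudocounts, quantile normalization, median centring, no filter, a filter at percentile 60, only the 6 arrays compared and the replicate block. It was 3 with array weights, where HSPA6 joined, and 2 to 3 with each array left out in turn, the 3 coming from the fit that leaves out Ex4 replicate 1. With no variance trend it was 1, and SFTPC probe set C then missed the threshold (log2 change 9.77, limma adjusted p = 0.060); the cause was not tested. It was 9 with only the 5 arrays of low 18S signal and 6 with the 18S class as a term. In the first of these, 6 were higher and 3 lower. They were HSPA6, the SFTPC probe sets A and C, DGCR2, DHRS2, RRP12, ZNF317 and 2 probe sets annotated to more than 1 gene. Those 2 were 200799_at and 200800_s_at, whose genes are not named here, with log2 changes of -1.52 and -1.43. The second setting added PI4K2A and DYRK1A. Genes past the threshold were 0 under 20 of 21 alternatives, and 1 with the 5 arrays, where HSPA6 had -2.53 (limma adjusted p = 0.014). With each array left out, probe set A ran from 2.27 to 2.45, B from -0.31 to 0.08, C from 8.99 to 11.18, D from -1.63 to -0.58 and E from -0.39 to 0.02. Of 107 named genes 97 were tested in all 21 alternatives and 10 dim ones in 20. Of these, 85 and 8 had no change of sign. The 14 others, HSPA5 and XBP1 among them, passed in none. List medians moved beyond the replicate spread in 46 of 616 alternatives. The replicate block gave 2 probe sets (1532 at an unadjusted p under 0.05, against 1345). Same-numbered LQ and Ex4 arrays correlated at -0.012 to 0.191 and differently numbered ones at -0.229 to 0.164, so the numbers were not taken as pairs. The precision is set by 3 arrays per group and, for dim probe sets, by signals near the array median.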
